A study of Mus musculus with 6 samples.

Results

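The nuclear genes that mitochondria need to import proteins and to divide and fuse were followed in mouse liver that lacks Nogo and in liver of wild-type littermates. They were picked by gene name: every Timm, Tomm and Chchd gene with a number, Pam16, Samm50, the metaxins Mtx1 to Mtx3, the fusion genes Mfn1, Mfn2 and Opa1, the fission genes Dnm1l, Fis1 and Mff, Immt, the prohibitins Phb and Phb2, and the porins Vdac1 to Vdac3. The rule matched 51 of the 54232 genes in the count table, after 1 name ending in -ps had been dropped. Of the 51 genes, 47 were read deeply enough to be tested. The rule uses names alone and no measured value.

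RNA was sequenced from whole liver of 3 Nogo-/- mice and 3 wild-type littermates, all 8 weeks old and fed normal chow. The knockout libraries are called knockout 1, 2 and 4 and the wild-type libraries wild type 2, 4 and 11, after the numbers in their labels. The labels do not say which part of the Nogo gene was removed. Nogo, encoded by Rtn4, is a reticulon that bends the membrane of the endoplasmic reticulum, and the study asked what its loss does to insulin signalling.

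Nearly all mitochondrial proteins are made in the cytosol and threaded in through translocases. The TOM complex is the entry gate of the outer membrane, from which TIM23 and its motor pull proteins with a presequence into the matrix, TIM22 inserts carriers into the inner membrane with the help of small intermembrane chaperones, SAM builds beta-barrels, and Chchd4 folds small proteins by forming disulfides. Mitofusins and Opa1 fuse the outer and inner membranes, Dnm1l divides the organelle, and hepatocytes are densely packed with mitochondria.

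Libraries held 17654412 to 18118811 counts in knockout and 17568223 to 20902369 counts in wild type. Rtn4 read 4.63, 8.22 and 4.69 CPM in knockout 1, 2 and 4, against 40.5, 52.8 and 56.0 CPM in wild type 2, 4 and 11, so it was lower in every library labelled knockout. Levels are in CPM, counts divided by a library size that TMM scaling has set to a common scale. Mitochondrially encoded genes took 28.6%, 19.7% and 11.8% of all counts in knockout 1, 2 and 4, against 6.90%, 6.17% and 6.71% in wild type 2, 4 and 11. This share did not overlap between genotypes, so share and genotype cannot be told apart: with the share as a covariate, 0 of 13304 genes passed edgeR's quasi-likelihood test, with 1146 at an unadjusted p under 0.05. Of the 9 hepatocyte markers 1 fell, and their summed level ran from 80500 to 116000 CPM in knockout and from 95200 to 112000 CPM in wild type. Markers of T and NK cells (3 of 5 tested rose, 8.06 to 17.6 CPM in knockout against 3.47 to 4.51 in wild type), B cells (4 of 5 rose, 9.09 to 16.5 against 3.18 to 3.76 CPM) and neutrophils (3 of 3 rose, 6.80 to 17.2 against 2.61 to 3.39 CPM) stood higher in knockout. Sinusoidal endothelial markers stood lower (3 of 5 fell, 62.9 to 95.7 CPM in knockout against 104 to 132 CPM in wild type), and 1 of 7 Kupffer cell markers fell (113 to 253 CPM in knockout against 152 to 240 CPM in wild type). Stellate cell and pancreas markers gave 0 calls, muscle and fat markers were too low to be tested, and 1 of 5 cholangiocyte and 1 of 4 red cell markers fell; Prss1 of pancreas and Ucp1 of fat had 0 counts in all libraries. The part of these shifts in the results below was not tested. In a piece of whole tissue, fewer cells of a type and less RNA per cell cannot be told apart.

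Among the 47 tested genes 6 rose and 6 fell. A gene was called where edgeR's quasi-likelihood test gave a Benjamini-Hochberg adjusted p under 0.05 over all 13304 tested genes, of which 17.0% were called, 8.76% higher in knockout and 8.29% lower. The genes that rose were Timm10b, Pam16, Timm9, Chchd10, Tomm34 and Mtx1. The genes that fell were Timm23, Tomm20, Opa1, Chchd4, Timm29 and Samm50. The called share of the list was thus 25.5%, and both directions were evenly filled. Each of the complexes TIM23, TIM22 and SAM held at least 1 riser and 1 faller, so that no complex with 2 or more called genes moved one way. With 2 or 3 called genes in each, this describes the calls and tests nothing about the complexes. Both calls of SAM, Samm50 and Mtx1, held in 1 of 6 fits with a library left out. The median log2 fold change, knockout over wild type, was -0.17 for the list and 0.01 for all tested genes, and 27 of the 47 genes lay below zero (57.4%, against 49.1% of all tested genes). In the fit with the mitochondrial share as covariate, the list median was 0.19 and 14 of 47 genes lay below zero, and with library totals as the scale it was -0.35, with 34 genes below zero, where the median of all genes was -0.16.

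**Figure D1:**
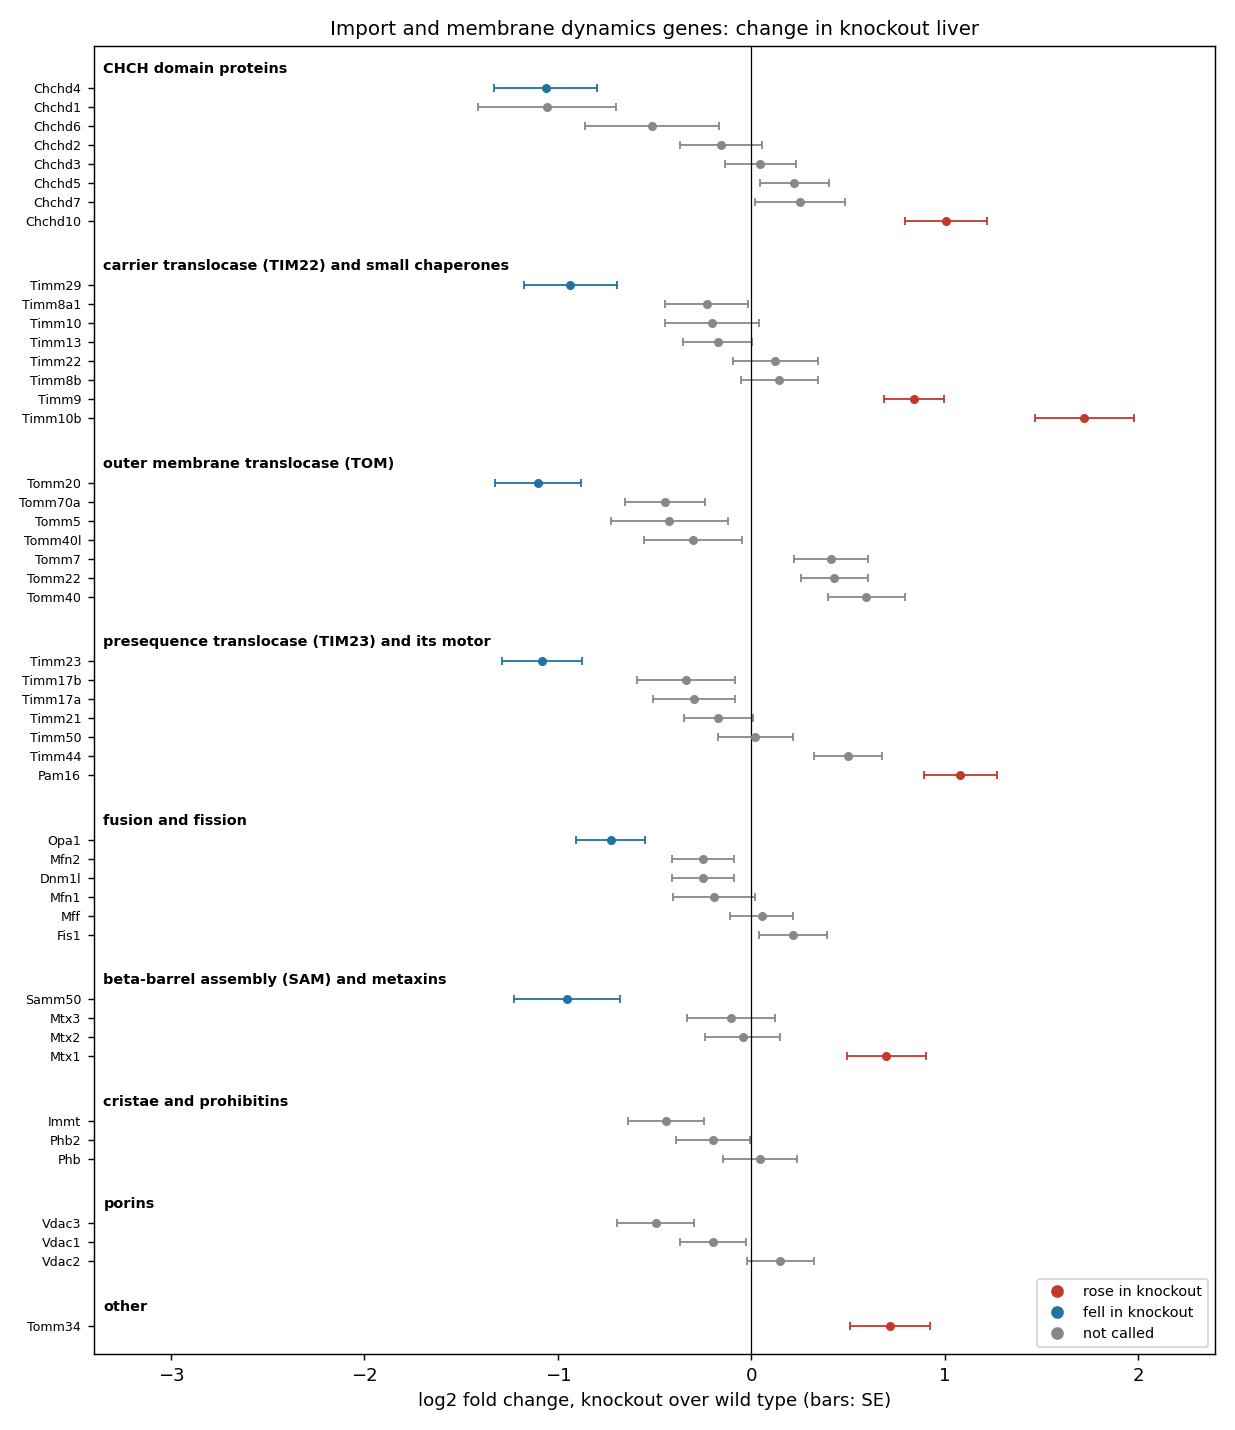
Log2 fold change, knockout over wild type, of the 47 tested genes of mitochondrial import and membrane dynamics, grouped by role; points are edgeR estimates from 3 libraries per genotype and bars are 1 SE. The changes run from -1.10 (Tomm20) to 1.72 (Timm10b), and the 6 risers in red and 6 fallers in blue are spread over 7 of the 9 role groups.

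The number of calls depended on single libraries. Leaving out knockout 4 gave 7 risers and 13 fallers among these genes, and leaving out wild type 4 gave 2 and 2; the other 4 fits with a library left out lay between, at 3 to 5 risers and 2 to 5 fallers. All 12 called genes kept their direction in these 6 fits. Their levels did not overlap between genotypes, so leaving out a library gave the direction little room to turn. Timm10b, Pam16, Timm23 and Tomm20 were called in 6 of 6 fits and Timm9 in 5 of 6, whereas the calls of the other 7 genes held in 1 to 3 of 6.

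The promoters of these 5 genes are shown because their calls held in at least 5 of the 6 fits with a library left out; Timm10b, Timm9 and Pam16 rose, and Timm23 and Tomm20 fell. Each sequence is the gene strand, 5′ to 3′, from 250 bases before to 50 bases after the RefSeq start (GRCm38.p6). They lie at chr7:105640195-105640494 (plus strand, Timm10b), chr12:71136626-71136925 (minus strand, Timm9), chr16:4624897-4625196 (minus strand, Pam16), chr14:32201842-32202141 (minus strand, Timm23) and chr8:126945872-126946171 (minus strand, Tomm20). RefSeq starts differ from the GENCODE gene spans given below: the Timm10b window lies wholly inside its span, and the Tomm20 window wholly upstream of its span. Capitals mark matches on either strand to the core motif of NRF1 (CGCANGCG), a regulator of mitochondrial genes, of ETS factors (CCGGAAG), of SP1 (GGGCGG) and of YY1 (AAGATGGC).
Timm10b: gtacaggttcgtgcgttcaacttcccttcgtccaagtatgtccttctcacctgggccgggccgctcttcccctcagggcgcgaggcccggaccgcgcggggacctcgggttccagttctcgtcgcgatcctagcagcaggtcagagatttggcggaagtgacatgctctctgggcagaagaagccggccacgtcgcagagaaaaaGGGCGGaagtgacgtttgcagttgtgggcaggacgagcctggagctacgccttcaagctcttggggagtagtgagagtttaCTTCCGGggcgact
Timm9: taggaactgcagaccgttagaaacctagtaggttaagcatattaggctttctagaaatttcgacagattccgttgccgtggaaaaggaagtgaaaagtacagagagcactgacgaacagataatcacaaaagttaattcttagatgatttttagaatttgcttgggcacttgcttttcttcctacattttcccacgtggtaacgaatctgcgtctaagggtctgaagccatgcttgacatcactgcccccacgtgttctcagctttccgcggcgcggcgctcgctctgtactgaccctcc
Pam16: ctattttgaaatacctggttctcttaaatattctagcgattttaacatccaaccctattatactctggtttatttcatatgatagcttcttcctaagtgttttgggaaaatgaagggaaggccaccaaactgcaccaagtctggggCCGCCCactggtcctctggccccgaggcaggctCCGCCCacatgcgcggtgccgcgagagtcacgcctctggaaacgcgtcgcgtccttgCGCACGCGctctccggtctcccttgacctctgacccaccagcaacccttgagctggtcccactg
Timm23: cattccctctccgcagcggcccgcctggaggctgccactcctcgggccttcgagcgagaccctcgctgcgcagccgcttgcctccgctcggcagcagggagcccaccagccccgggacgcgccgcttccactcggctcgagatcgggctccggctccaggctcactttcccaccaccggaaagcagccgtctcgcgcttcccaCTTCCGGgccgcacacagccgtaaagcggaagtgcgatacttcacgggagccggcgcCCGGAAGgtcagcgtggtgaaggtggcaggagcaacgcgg
Tomm20: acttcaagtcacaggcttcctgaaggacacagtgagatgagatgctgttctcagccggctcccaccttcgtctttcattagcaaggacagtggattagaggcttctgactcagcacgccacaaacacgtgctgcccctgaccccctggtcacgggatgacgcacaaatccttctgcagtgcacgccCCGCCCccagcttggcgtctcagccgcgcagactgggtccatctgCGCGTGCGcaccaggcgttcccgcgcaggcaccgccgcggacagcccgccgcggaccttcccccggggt
Of the genes that rose, Timm10b holds 1 ETS and 1 SP1 match, Pam16 holds 1 NRF1 and 2 SP1 matches, and Timm9 holds no match in this window. Of those that fell, Timm23 holds 2 ETS matches and Tomm20 holds 1 NRF1 and 1 SP1 match. GC content was 61.0% for Timm10b, 46.0% for Timm9, 54.0% for Pam16, 70.3% for Timm23 and 63.7% for Tomm20. RefSeq promoters were matched for 44 of the 51 genes, which include the untested Timm8a2, Tomm20l, Tomm6 and Tomm6os. Of the 44, 10 hold an NRF1 match (22.7%, against 19.0% of 9753 tested genes with a promoter and 8.21% of all 32851 promoters). An ETS match was found in 20 of the 44 (45.5%, against 19.6% of tested genes and 8.86% of all promoters). SP1 matches were found in 24 (54.5%, against 66.7% and 35.7%) and YY1 matches in 3 (6.82%, against 5.30% and 2.75%). NRF1 matches were in 1 of the 6 genes that rose and 4 of the 6 that fell, and ETS matches in 3 of the 6 that rose and 2 of the 6 that fell. SP1 matches were in 4 of the 6 in each direction, and YY1 matches in 1 of the 6 that rose and 0 of the 6 that fell. Shares over all genes that rose or fell were not counted, and whether motifs go with direction was not tested. A match describes letters only, and matches to different motifs may share bases.

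The carrier pathway held both of the small-chaperone genes that rose. Timm10b, which encodes a subunit that docks small chaperones on the TIM22 complex (ENSMUSG00000089847, chr7:105640056-105643637, plus strand, mm10), had 12.5, 11.6 and 7.94 CPM in knockout 1, 2 and 4, against 3.85, 2.83 and 3.02 CPM in wild type 2, 4 and 11. Every knockout library lay more than 2-fold above every wild-type library. The log2 fold change was 1.72 ± 0.25 (SE), a 3.30-fold rise and the largest of the list (edgeR, Benjamini-Hochberg adjusted p = 0.00515; 0.0276 at most with any library left out). The gene overlaps Arfip2 and a snoRNA on the opposite strand, the larger of these overlaps being 277 bases, and Arfip2 had 0.71 ± 0.23 (edgeR adjusted p = 0.0535). It also overlaps Gm45799 on its own strand by 376 bases, with 17.7% of its 50-base words shared with other genes, and Gm45799 had 0 to 5 counts per library.

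Timm9, which forms the ring-shaped chaperone of the intermembrane space together with Timm10 (ENSMUSG00000021079, chr12:71123173-71136684, minus strand), had 47.1, 43.7 and 47.1 CPM in knockout 1, 2 and 4, against 27.4, 25.01 and 24.6 CPM in wild type 2, 4 and 11. The libraries of each genotype lay close together and the genotypes did not overlap. Timm9 rose by 0.84 ± 0.16 on the log2 scale, 1.79-fold (edgeR adjusted p = 0.00964; 0.0555 without wild type 4, which ends the call). Its partner Timm10 had 15.5, 15.1 and 27.0 CPM in knockout against 25.1, 19.4 and 21.8 CPM in wild type, and did not pass the test (-0.20 ± 0.24, adjusted p = 0.588).

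Timm29, a TIM22 subunit of animals that helps the complex assemble and meet the TOM gate (ENSMUSG00000048429, chr9:21592722-21595970, plus strand), had 13.4, 19.8 and 24.5 CPM in knockout 1, 2 and 4, against 39.0, 42.3 and 29.1 CPM in wild type 2, 4 and 11. It was lower in each knockout library than in any wild-type library, with the narrowest gap between knockout 4 and wild type 11. It fell by 0.94 ± 0.24 on the log2 scale (edgeR adjusted p = 0.0267), and adjusted p was 0.0762 to 0.0972 without knockout 1, knockout 2, wild type 2 or wild type 4, which ends the call. Timm29 overlaps Yipf2 on the opposite strand by 107 bases, and Yipf2 also fell (-1.13 ± 0.29, adjusted p = 0.0261). Timm22, the channel itself, had 10.5, 14.7 and 17.7 CPM in knockout against 13.0, 11.8 and 14.5 CPM in wild type and did not pass the test (0.12 ± 0.22). Timm13, the most strongly expressed gene of the group per kilobase of exon in wild type (79.2 CPM per kilobase, against 70.2 in knockout), had 89.7, 85.3 and 114 CPM in knockout against 105, 102 and 118 CPM in wild type and likewise did not pass (-0.17 ± 0.18), nor did its partners Timm8a1 (-0.23 ± 0.22) and Timm8b (0.14 ± 0.20). Of the 9 genes of the group, 2 rose, 1 fell, 5 did not pass and Timm8a2 had 0 or 1 count per library and was not tested.

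In the presequence pathway of the inner membrane the channel gene fell while a motor gene rose. Timm23, the channel of the TIM23 translocase (ENSMUSG00000013701, chr14:32180162-32201898, minus strand), had 19.4, 16.3 and 27.0 CPM in knockout 1, 2 and 4, against 43.4, 47.6 and 41.5 CPM in wild type 2, 4 and 11. No knockout library reached the lowest wild-type library. The log2 fold change was -1.08 ± 0.21, so that wild type stood 2.12-fold higher (edgeR adjusted p = 0.0105; 0.0444 at most with any library left out). Of the 50-base words in its exons 57.5% also occur elsewhere in the annotated transcripts, in 46 other genes, so part of its reads may have been dropped or assigned to copies. The copy sharing most words, Gm10273, had 8 to 30 counts per library and did not pass the test (0.57 ± 0.46).

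Pam16, the J-like protein that holds the motor's J protein at the channel (ENSMUSG00000014301, chr16:4616464-4624988, minus strand), had 65.4, 49.9 and 48.0 CPM in knockout 1, 2 and 4, against 24.9, 22.9 and 29.4 CPM in wild type 2, 4 and 11. The genotypes did not overlap, and knockout 1 was the highest library. Pam16 rose by 1.08 ± 0.19 on the log2 scale, 2.11-fold (edgeR adjusted p = 0.00811; 0.0444 at most with any library left out). It shares 35.7% of its 50-base words with other genes, mainly Gm9803, which had 29 to 76 counts per library and also rose (1.25 ± 0.33, adjusted p = 0.0284). It also overlaps Glis2 on the opposite strand by 455 bases, and Glis2 had 10 to 24 counts per library. Timm44, which tethers the chaperone of the motor to the channel, had 75.6, 62.6 and 54.1 CPM in knockout against 47.3, 43.5 and 45.1 CPM in wild type. Its knockout libraries all lay above its wild-type libraries, and the change of 0.50 ± 0.18 did not pass the test (adjusted p = 0.0757; 0.0201 without knockout 4). Timm50, the presequence receptor of the inner membrane (0.02 ± 0.19), Timm21, which links the complex to TOM (-0.17 ± 0.18), and the channel partners Timm17a (-0.30 ± 0.21) and Timm17b (-0.34 ± 0.25) did not pass either. Of 7 genes, 1 rose and 1 fell.

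At the TOM gate of the outer membrane the presequence receptor was the called gene. Tomm20 (ENSMUSG00000093904, chr8:126930667-126945844, minus strand) had 17.2, 22.2 and 31.9 CPM in knockout 1, 2 and 4, against 49.6, 53.0 and 50.7 CPM in wild type 2, 4 and 11. The wild-type libraries lay within a few CPM of each other and the knockout libraries were all far below them, knockout 1 lowest. Tomm20 fell by 1.10 ± 0.22 on the log2 scale, so that wild type stood 2.14-fold higher (edgeR adjusted p = 0.0122; 0.0480 at most with any library left out). Tomm70a, the receptor for carriers, had 56.5, 86.8 and 84.5 CPM in knockout against 110, 112 and 88.3 CPM in wild type. Its genotypes did not overlap, wild type 11 being nearest to the knockout libraries, and the change of -0.45 ± 0.21 did not pass the test (adjusted p = 0.156).

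None of the other 6 tested genes of the gate passed the test. Tomm40, the channel, had 50.4, 48.0 and 58.5 CPM in knockout against 32.2, 28.3 and 43.4 CPM in wild type (0.59 ± 0.20, edgeR adjusted p = 0.0623; 0.0363 without wild type 11). Tomm22, the receptor that joins channels, had 52.4, 61.3 and 53.5 CPM in knockout against 44.8, 35.0 and 44.4 CPM in wild type (0.43 ± 0.17, adjusted p = 0.111). For both genes every knockout library exceeded every wild-type library, a state that 38.9% of all tested genes reached in one direction or the other and that 22 of the 47 genes reached here (10 higher and 12 lower in knockout). The small subunits Tomm7 (0.41 ± 0.19) and Tomm5 (-0.42 ± 0.30) and the channel paralog Tomm40l (-0.30 ± 0.26) did not pass. Tomm40l shares 56.3% of its 50-base words, with Nr1i3, which it overlaps on the opposite strand by 3304 bases. Tomm6 and Tomm20l had 0 to 3 counts per library and were not tested; 72.8% of the 50-base words of Tomm6 are shared, mainly with Gm21981, which had 0 or 1 count. Tomm6os, an antisense transcript that overlaps Tomm6, had 14, 9 and 10 counts in knockout against 3, 4 and 9 counts in wild type and was not tested either. Tomm34, a cytosolic co-chaperone and no part of the gate, had 10.1, 10.5 and 9.57 CPM in knockout 1, 2 and 4, against 6.46, 6.77 and 5.16 CPM in wild type 2, 4 and 11. It rose by 0.72 ± 0.20 (adjusted p = 0.0384), a call that held with knockout 4 left out and was lost without each of the other 5 libraries (adjusted p 0.0931 to 0.121), and that was also lost with library totals as the scale (0.54, adjusted p = 0.143).

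**Figure D2:**
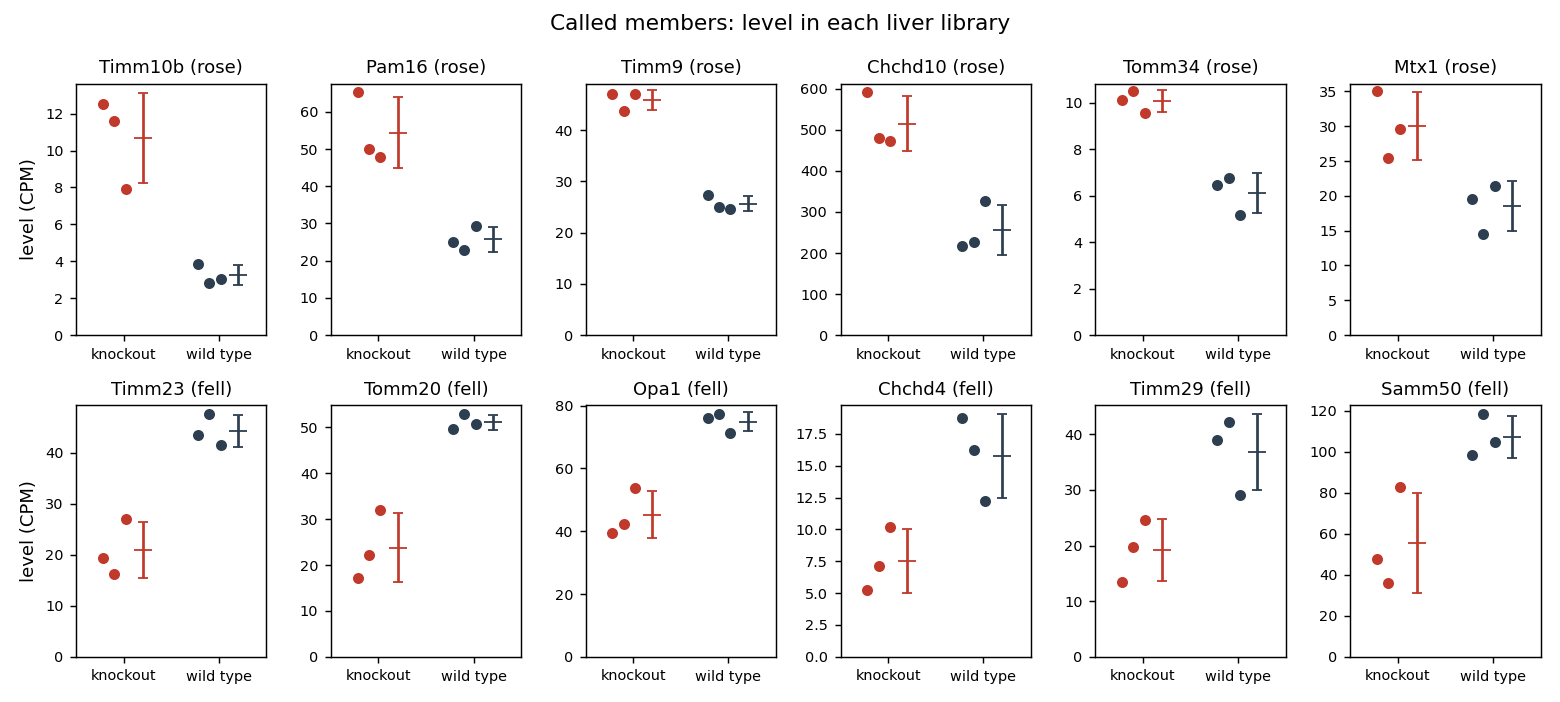
Level in CPM after TMM scaling of the 12 called genes in each liver library, in separate panels with axes from 0; points in a panel run from left to right as knockout 1, 2 and 4 and wild type 2, 4 and 11, and the bar is the mean ± SD of 3 libraries. In every panel the knockout and wild-type points are apart, and in the 6 panels of genes that fell knockout 4 is the knockout point nearest to wild type.

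In beta-barrel assembly the core gene and a metaxin went opposite ways. Samm50, the SAM channel that inserts porins and Tomm40 into the outer membrane (ENSMUSG00000022437, chr15:84192241-84217267, plus strand), had 47.5, 35.9 and 82.7 CPM in knockout 1, 2 and 4, against 98.3, 118 and 105 CPM in wild type 2, 4 and 11. Knockout 4 lay much nearer to wild type than to its own group. The log2 fold change was -0.95 ± 0.28 (edgeR adjusted p = 0.0401); without knockout 4 it was -1.37 (adjusted p = 0.000956), and without each of the other 5 libraries adjusted p was 0.0762 to 0.134.

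Mtx1, a metaxin on the cytosolic face of SAM (ENSMUSG00000064068, chr3:89209081-89227088, minus strand), had 35.1, 25.4 and 29.7 CPM in knockout 1, 2 and 4, against 19.6, 14.5 and 21.4 CPM in wild type 2, 4 and 11. The genotypes did not overlap, and knockout 2 lay closest to wild type 11. It rose by 0.70 ± 0.20 on the log2 scale (edgeR adjusted p = 0.0417); the call held without knockout 4, was lost without each of the other 5 libraries (0.0507 to 0.175), and was lost with library totals as the scale (0.51, adjusted p = 0.120). It overlaps Thbs3 and Gm43737 on the opposite strand, the larger of these overlaps being 759 bases, and these had 2 to 6 and 26 to 38 counts per library. Mtx2, its partner, had 38.6, 42.2 and 58.1 CPM in knockout against 51.5, 46.6 and 45.2 CPM in wild type, with overlapping genotypes (-0.04 ± 0.19), and Mtx3 did not pass either (-0.11 ± 0.23).

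Among the proteins with a CHCH fold, a twin pair of cysteine motifs closed by disulfides, the oxidoreductase fell and Chchd10 rose. Chchd4, the receptor that oxidises incoming proteins (ENSMUSG00000034203, chr6:91462172-91473546, minus strand), had 5.23, 7.14 and 10.2 CPM in knockout 1, 2 and 4, against 18.8, 16.2 and 12.2 CPM in wild type 2, 4 and 11. Knockout 4 and wild type 11 came nearest to each other without overlap. The log2 fold change was -1.06 ± 0.27 (edgeR adjusted p = 0.0246), and the call was lost without knockout 1, knockout 2, wild type 2 or wild type 4 (0.0769 to 0.0932).

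Chchd10, an intermembrane space protein mutated in inherited human motor neuron and muscle disease (ENSMUSG00000049422, chr10:75933130-75937747, plus strand), had 593, 481 and 472 CPM in knockout 1, 2 and 4, against 217, 226 and 326 CPM in wild type 2, 4 and 11. It had the highest mean of the list in knockout, although Chchd2 was read more in knockout 4, and all knockout libraries lay above wild type 11. Chchd10 rose by 1.01 ± 0.21 on the log2 scale, 2.01-fold (edgeR adjusted p = 0.0137), and the call was lost without knockout 1, wild type 2 or wild type 4 (0.0506 to 0.0764). Its paralog Chchd2 had 356, 329 and 516 CPM in knockout against 411, 430 and 499 CPM in wild type, with knockout 4 the highest of all libraries (-0.16 ± 0.21, adjusted p = 0.637). Per kilobase of exon, Chchd10 stood at 327 CPM in knockout and 163 CPM in wild type, and Chchd2 at 177 CPM in knockout and 197 CPM in wild type, so in the group means the order of the top pair of the list was turned between genotypes. Chchd10 overlaps Mmp11 and Gm867 on the opposite strand, the larger of these overlaps being 155 bases. Mmp11, with 7 to 21 counts per library, also rose (1.51 ± 0.43, edgeR adjusted p = 0.0372).

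Chchd1, a protein of the small subunit of the mitochondrial ribosome, showed a split among knockout livers. It had 9.80, 10.5 and 28.9 CPM in knockout 1, 2 and 4, against 33.3, 35.4 and 33.9 CPM in wild type 2, 4 and 11. Knockout 4 was close to wild type and knockout 1 and 2 were far below, and the change of -1.06 ± 0.36 did not pass (edgeR adjusted p = 0.0652; 0.000257 without knockout 4). Chchd1 did pass with DESeq2 (adjusted p = 0.0158). It also passed in edgeR after trends with gene length and GC content were removed (-1.11, adjusted p = 0.0328). The cristae subunits Chchd3 (0.05 ± 0.18) and Chchd6 (-0.51 ± 0.35), and Chchd5 (0.22 ± 0.18) and Chchd7 (0.25 ± 0.23), did not pass. Chchd6 was the lowest of the tested genes of the list per kilobase, at 0.556 CPM in knockout and 0.799 CPM in wild type.

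Opa1 was the called gene of the fusion and fission machinery. This dynamin-like GTPase fuses inner membranes and keeps cristae narrow (ENSMUSG00000038084, chr16:29579334-29654884, plus strand), and it had 39.6, 42.5 and 53.7 CPM in knockout 1, 2 and 4, against 76.0, 77.4 and 71.4 CPM in wild type 2, 4 and 11. All knockout libraries lay below all wild-type libraries, knockout 4 again nearest. The log2 fold change was -0.73 ± 0.18 (edgeR adjusted p = 0.0217), and the call was lost without knockout 1, knockout 2, wild type 2 or wild type 4 (0.0748 to 0.0884) and after trends with gene length and GC content were removed (0.0522).

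The outer-membrane fusion GTPases did not pass. Mfn2 had 71.4, 78.2 and 69.7 CPM in knockout against 88.0, 82.0 and 91.1 CPM in wild type, without overlap (-0.25 ± 0.16, edgeR adjusted p = 0.296), and Mfn1 had 54.2, 42.3 and 43.4 CPM against 60.1, 61.2 and 38.8 CPM, with overlap (-0.19 ± 0.21). On the fission side Dnm1l, the GTPase that constricts mitochondria, had 29.9, 26.6 and 29.0 CPM in knockout against 31.7, 34.3 and 35.7 CPM in wild type (-0.25 ± 0.16). Its outer-membrane receptors Fis1 (0.22 ± 0.17) and Mff (0.05 ± 0.16) did not pass.

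None of the 3 genes of cristae and prohibitins, and none of the 3 porins, was called. Immt, the core of the MICOS complex at cristae junctions, had 49.2, 43.5 and 67.9 CPM in knockout against 71.9, 71.2 and 74.7 CPM in wild type, without overlap (-0.44 ± 0.20, edgeR adjusted p = 0.141; 0.0118 without knockout 4). Vdac3, the least read of the porins, had 49.2, 41.3 and 66.2 CPM in knockout against 71.1, 70.5 and 79.1 CPM in wild type, again without overlap (-0.49 ± 0.20, adjusted p = 0.110; 0.0109 without knockout 4). Vdac1, the main channel for metabolites of the outer membrane, had 187, 217 and 222 CPM in knockout against 239, 258 and 222 CPM in wild type (-0.20 ± 0.17). Only wild type 11 of the wild-type libraries came down to the level of knockout 4. Phb2, a subunit of the ring-shaped prohibitin scaffold of the inner membrane, had 159, 143 and 207 CPM in knockout against 187, 185 and 212 CPM in wild type, with overlap (-0.20 ± 0.19). Its partner Phb (0.04 ± 0.19) and the porin Vdac2 (0.15 ± 0.17) also did not pass.

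Knockout 4 stood apart from knockout 1 and 2 across the list. In the 6 genes that fell it was the highest knockout library in 6, and in the 6 that rose it was the lowest in 4; over all called genes the shares were 76.4% of 1103 that fell and 73.6% of 1165 that rose. The median change of the 47 genes in a single library, on the scale log2(CPM + 0.5) minus the wild-type mean, came to -0.27, -0.25 and 0.17 in knockout 1, 2 and 4, against -0.01, -0.05 and 0.04 in wild type 2, 4 and 11. Thus knockout 1 and 2 were on the low side of wild type and knockout 4 on the high side, and 18, 15 and 29 of the 47 genes lay above the wild-type mean in knockout 1, 2 and 4. Knockout 4 also had the lowest mitochondrially encoded share of the knockouts, and the part of that share in this order was not tested. Set alone against the 3 wild-type libraries, knockout 4 kept the direction of all 12 called genes, from -0.71 (Timm23) to 1.30 (Timm10b). The levels of these genes did not overlap between genotypes, so that direction was given beforehand and is no separate support. In that fit the spread of knockout 4 is assumed to be that of the wild-type group. The summed level of the genes was 2977, 2759 and 3460 CPM in knockout and 2961, 2966 and 3195 CPM in wild type, with overlap.

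**Figure D3:**
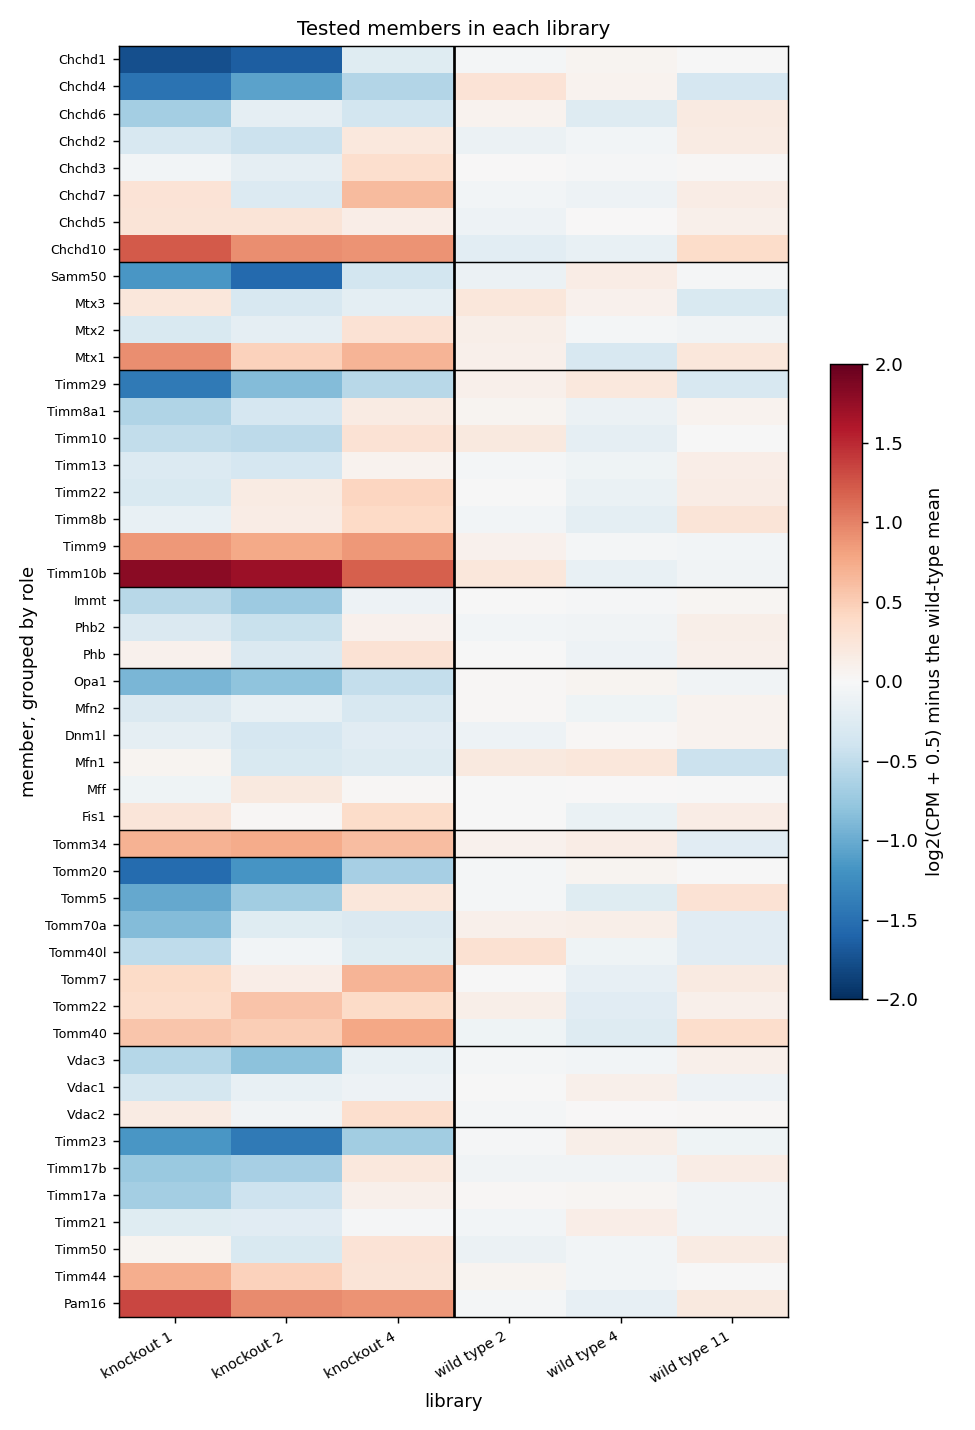
Change of each of the 47 tested genes in each library, as log2(CPM + 0.5) minus the wild-type mean, red above and blue below it; the columns are knockout 1, 2 and 4 and then wild type 2, 4 and 11, and black lines part the role groups. The called genes have the same sign in the 3 knockout columns, while genes such as Chchd2, Mtx2 and Timm10 are blue in knockout 1 and 2 and red in knockout 4.

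Ratios of counts between partners within a library do not depend on how libraries are scaled, and they describe the balance of reads between partner genes. The pairs were chosen after the values were seen, so they describe and test nothing. Where a riser and a faller each do not overlap between genotypes, such as Pam16 and Timm23, their ratio cannot overlap either. Pam16 over Timm23 was 3.37, 3.07 and 1.78 in knockout 1, 2 and 4, against 0.575, 0.480 and 0.709 in wild type 2, 4 and 11, so that the motor gene outnumbered the channel gene in each knockout library and in no wild-type library. Timm50 over Timm23 was 1.71, 1.59 and 1.44 in knockout against 0.678, 0.650 and 0.871 in wild type. At the gate, Tomm40 over Tomm20 was 2.93, 2.16 and 1.83 in knockout against 0.649, 0.534 and 0.857 in wild type, and Tomm22 over Tomm20 was 3.04, 2.76 and 1.67 in knockout against 0.904, 0.661 and 0.875 in wild type. Channel and central receptor were thus read more than Tomm20 in knockout and less than it in wild type. Mtx1 over Samm50 was 0.738, 0.707 and 0.359 in knockout against 0.200, 0.123 and 0.204 in wild type. Timm9 over Timm10 was 3.04, 2.90 and 1.75 in knockout against 1.09, 1.29 and 1.13 in wild type. Timm22 over Timm29 was 0.782, 0.742 and 0.721 in knockout against 0.332, 0.280 and 0.498 in wild type, a ratio in which knockout 4 lay beside the other knockouts. Chchd10 over Chchd2 was 1.66, 1.46 and 0.915 in knockout against 0.527, 0.527 and 0.655 in wild type, and Mfn2 over Opa1 was 1.80, 1.84 and 1.30 against 1.16, 1.06 and 1.27. Ratios within the porins, and of Mfn1 over Mfn2, overlapped between genotypes. The counts are not divided by gene length here, so a ratio above 1 does not say that more molecules were present.

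**Figure D4:**
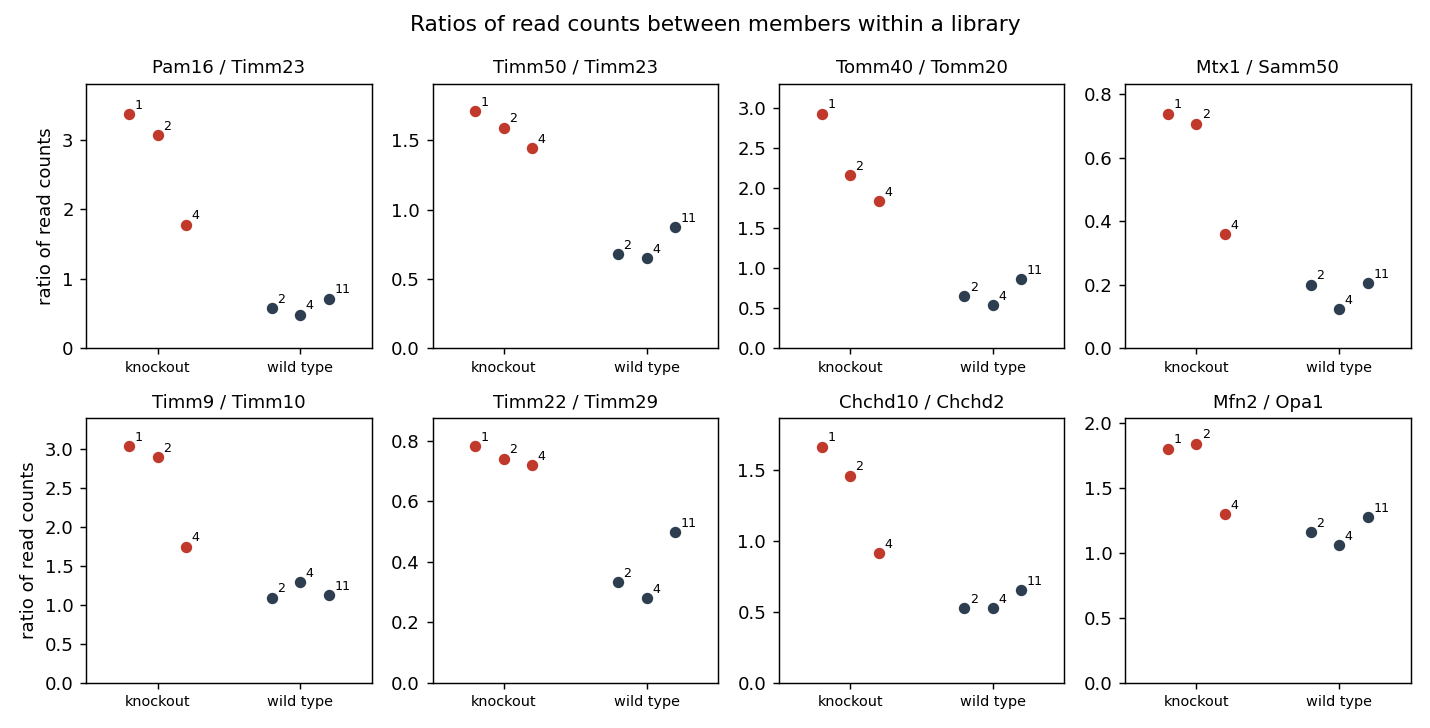
Ratio of read counts of 8 pairs of partner genes within each library, from 0 up; numbers beside the points name the libraries, knockout 1, 2 and 4 at the left and wild type 2, 4 and 11 at the right of each panel. All 8 ratios are higher in every knockout library than in any wild-type library, by little for Mfn2 over Opa1, where knockout 4 is at 1.30 and wild type 11 at 1.27.

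The wider machinery of import, quality control and membrane shape was read from a list of 70 partner genes, of which 69 were in the table and 65 were tested. Of these 3 rose and 11 fell (21.5%, against 17.0% of all tested genes, edgeR), and their median log2 fold change was -0.23, against 0.01 for all tested genes. The list was set with earlier results of these data known. The number that fell was 25 without knockout 4 and 2 to 7 without any of the other libraries, and 5 rose without knockout 4, against 1 without knockout 1, knockout 2, wild type 2 or wild type 4.

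Import motor, processing and assembly held the most calls, 1 up and 6 down of 19. Hspa9, the matrix Hsp70 that pulls proteins through TIM23, had 112, 156 and 295 CPM in knockout 1, 2 and 4, against 532, 572 and 480 CPM in wild type 2, 4 and 11 (-1.49 ± 0.31, edgeR adjusted p = 0.0132; 0.0535 without knockout 2). Romo1, a small inner-membrane protein of the TIM23 translocase, had 184, 146 and 127 CPM in knockout against 66.8, 57.6 and 74.6 CPM in wild type (1.20 ± 0.20, adjusted p = 0.00671; 0.0396 at most with any library left out). The motor's chaperone was thus lower and the translocase's small subunit higher in each knockout library, as Timm23 and Pam16 also parted. Mtch2, which inserts helical proteins into the outer membrane, had 5.03, 7.84 and 26.1 CPM in knockout against 57.4, 55.7 and 45.2 CPM in wild type. Its change of -2.02 ± 0.48 was the largest on the list (adjusted p = 0.0201) and was -3.04 without knockout 4, while adjusted p was 0.0544 to 0.0751 without knockout 1, knockout 2 or wild type 4. Of the peptidases that trim presequences, Pmpca, a subunit of the processing peptidase, fell (-1.28 ± 0.28, adjusted p = 0.0146; 0.0583 without knockout 1 and 0.0552 without knockout 2), as did Mipep, which trims further residues (-1.06 ± 0.20, adjusted p = 0.0106; 0.0432 at most with any library left out). Pmpcb, the other subunit of the processing peptidase, did not pass (-0.47 ± 0.24, adjusted p = 0.188), nor did the inner-membrane peptidase genes Immp1l (-0.33 ± 0.20) and Immp2l (0.03 ± 0.18). Hspd1, the matrix chaperonin, fell by 1.01 ± 0.23 (adjusted p = 0.0189; 0.0594 to 0.0725 without knockout 1, knockout 2, wild type 2 or wild type 4), with 42.1% of its 50-base words shared with other genes. Aifm1, which docks Chchd4 at the inner membrane, fell by 0.80 ± 0.25 (adjusted p = 0.0490), a call that held without knockout 4 and was lost without each of the other 5 libraries (up to 0.150).

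The proteases of inner membrane and matrix were called in 4 of 5 genes. Clpx, the unfoldase of the ClpXP protease, fell by 1.02 ± 0.21 (edgeR adjusted p = 0.0122; 0.0472 at most with any library left out), while its proteolytic partner Clpp had 86.5, 72.0 and 83.2 CPM in knockout against 52.1, 44.7 and 58.1 CPM in wild type and rose by 0.64 ± 0.18 (adjusted p = 0.0332; lost with library totals as the scale, 0.130, after trends with length and GC content were removed, 0.0630, and without knockout 1, knockout 2, wild type 2 or wild type 4, 0.0542 to 0.167). Lonp1, the main matrix protease, fell by 0.83 ± 0.22 (adjusted p = 0.0278) and Spg7, a subunit of an inner-membrane protease, by 0.64 ± 0.17 (adjusted p = 0.0296); both calls held without knockout 4 and were lost without each of the other 5 libraries (0.0641 to 0.0981 for Lonp1, 0.0590 to 0.107 for Spg7). Clpp over Clpx was 3.37, 2.57 and 2.37 in knockout against 1.01, 0.831 and 0.776 in wild type, without overlap.

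Regulators of shape and contact gave few calls. Mief2, which recruits Dnm1l to the outer membrane, had 42.6, 34.3 and 26.6 CPM in knockout against 20.8, 15.7 and 19.0 CPM in wild type (0.90 ± 0.21, edgeR adjusted p = 0.0194), lost without knockout 1, knockout 2, wild type 2 or wild type 4 (0.0509 to 0.0903). Yme1l1, an inner-membrane protease that cuts Opa1, fell by 0.60 ± 0.18 (adjusted p = 0.0458), a call that held without knockout 4 and was lost without each of the other 5 libraries (up to 0.162). Oma1, the other protease that cuts Opa1, did not pass (-0.67 ± 0.25, adjusted p = 0.0860). Rmdn3, an outer-membrane tether that binds Vapb on the endoplasmic reticulum, had 14.0, 24.4 and 31.3 CPM in knockout against 53.2, 48.3 and 47.8 CPM in wild type (-1.10 ± 0.26, adjusted p = 0.0195), lost without knockout 2, wild type 2 or wild type 4 (0.0575 to 0.0593). It was the called gene among 13 contact genes, and Vapb had 44.6, 73.9 and 80.6 CPM in knockout against 102, 99.3 and 95.4 CPM in wild type (-0.57 ± 0.22, adjusted p = 0.0990). None of the 6 tested cristae partners and none of the 7 tested genes of cardiolipin, the lipid of the inner membrane, was called. The cristae partner 2410015M20Rik came closest, without overlap between genotypes (-0.90 ± 0.28, edgeR adjusted p = 0.0512, and 0.000432 without knockout 4).

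**Figure D5:**
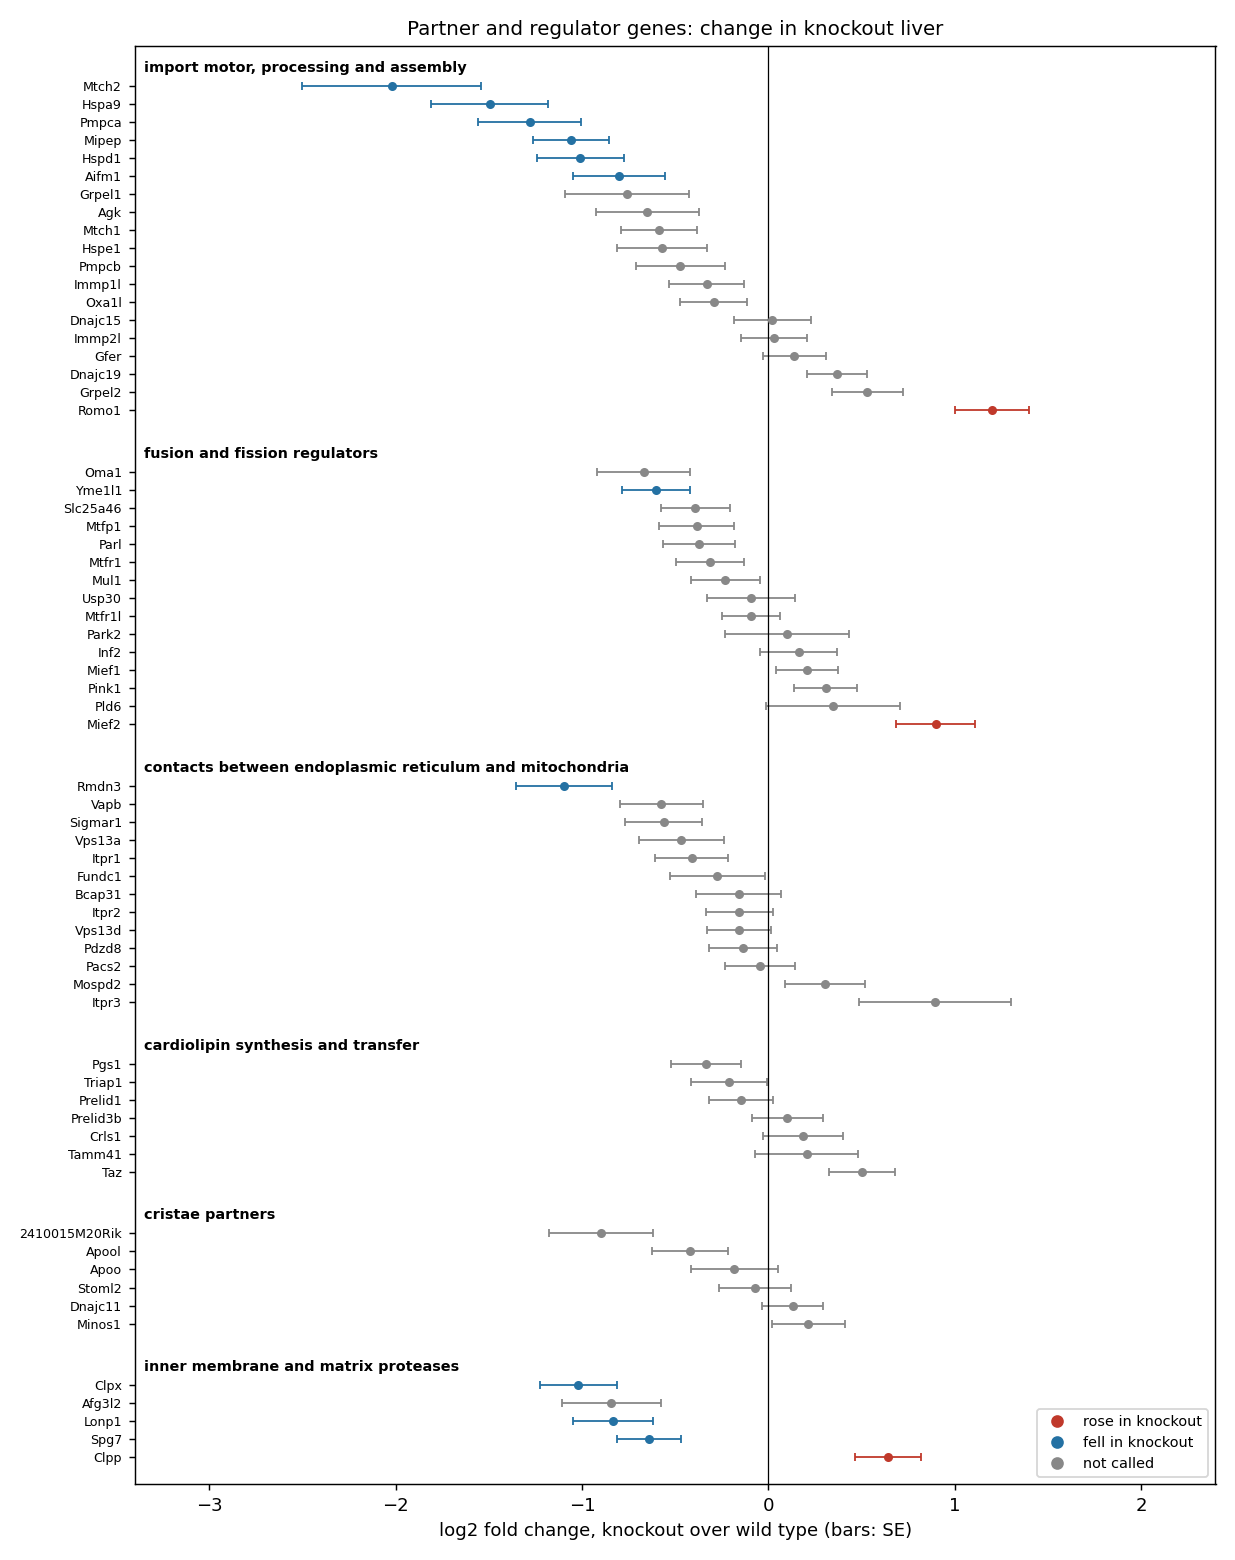
Log2 fold change, knockout over wild type, of the 65 tested partner genes, grouped by role; points are edgeR estimates from 3 libraries per genotype and bars are 1 SE, with risers in red and fallers in blue. The 11 fallers run from -0.60 (Yme1l1) to -2.02 (Mtch2), 6 of them in the import motor, processing and assembly group, and the 3 risers are Romo1, Mief2 and Clpp.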

How the data were processed

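Whole-liver RNA was sequenced with 3 libraries per genotype. Per the labels' protocols, an RNeasy kit gave the RNA and a SMARTer mRNA-Seq kit the libraries. The authors deposited raw counts per gene, without normalization. Per the submitters' processing notes the genome build is mm10. Not given in the sources used here are the aligner, counting program, annotation, strandedness and treatment of multiply mapped reads. The table's columns all belonged to the 6 samples.

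Counts were tested in R 4.3.3 with edgeR 4.0.16 (quasi-likelihood F test, TMM scaling, filterByExpr, no covariate, two-sided), which kept 13304 genes, with Benjamini-Hochberg adjustment over all of them and a threshold of 0.05. To get the SE, the size of the log2 fold change was divided by the root of the F statistic. Single-library changes used a pseudocount of 0.5 CPM. The test was checked on simulated data. DESeq2 1.42.0, other scalings and filters, a replicate block, the mitochondrial share as a covariate, removal of spline trends with gene length and GC content, and leaving out each library were alternatives. Knockout 4 alone against wild type was added after the data were seen. A floor of 3 counts equals 0.139 to 0.199 CPM per library and covers counting error only.

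The genes, roles, partner and marker lists were chosen with earlier results of these data known. The rule for named genes took each called gene, the highest uncalled gene of each role, and up to 12 called partners by smallest p, with Rtn4. Others, such as Tomm40, Chchd1, Yme1l1, Aifm1 and the genes given to complete a role, were named after their values were seen. Of the identifiers, 54165 were found in GENCODE M21, which gave coordinates and exon lengths. Shared sequence is the percentage of a gene's 50-base words found in transcripts of other genes, read on either strand, so overlaps with genes of the opposite strand count too. Pairs of libraries of 1 genotype differed by a chi-square per degree of freedom of 21.0 to 171, far over sampling noise, so each was counted as a sample. The labels call the mice littermates, and p-values measure the spread between these libraries.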

Additional observations from a re-analysis of the deposited data

How the results depend on the processing

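Over 16 alternatives the 12 called genes kept their direction in all 192 values and their call in 127. Their levels did not overlap between genotypes, so the direction had little room to turn in fits that only left libraries out. The 12 called genes kept 69 of 72 calls over the other scalings, test and filters. Tomm34 was lost with library totals and without the low-count filter, and Mtx1 with library totals. Library totals shifted the median of all genes to -0.16 and that of the genes described to -0.35, with 4 risers and 7 fallers, and rising genes made up 30.6% of all calls, against 51.4% in the main test. With 1 library left out, calls over all genes ran from 630 to 4046, against 2268 in the main test, those of the genes described from 2 to 7 risers and from 2 to 13 fallers, and those of the partners from 1 to 5 risers and from 2 to 25 fallers. Without the low-count filter 19 partners fell.

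With the mitochondrial share as a covariate, 0 of all genes were called, 0 of the genes described in either direction and 0 of the partners, 7 of the genes described were under 0.05 unadjusted, and their median was 0.19; Chchd2 (0.24), Vdac1 (0.0054), Phb2 (0.0837), Timm13 (0.0811), Mtx2 (0.40) and Tomm70a (0.0128), none of them called, turned positive, as did Timm17a (0.31), Timm17b (0.37), Tomm5 (0.48), Timm8a1 (0.35), Timm10 (0.38), Chchd1 (0.04) and Timm21 (0.0091). In this fit the estimates of Chchd2, Vdac1, Phb2, Timm13, Tomm70a, Chchd1 and Timm21 were smaller than their SE (0.25 to 0.34), so their sign is uncertain. The called genes were then at 1.18 (Timm10b), 0.84 (Timm9), 0.73 (Chchd10), 0.70 (Pam16), 0.66 (Tomm34), 0.47 (Mtx1), -0.27 (Timm29), -0.36 (Chchd4), -0.36 (Samm50), -0.39 (Opa1), -0.43 (Tomm20) and -0.72 (Timm23). With knockout 4 alone, 25 of all genes were called and 0 of the genes described or the partners, 12 of the genes described were under 0.05 unadjusted, and their median was 0.17; Chchd2 (0.21), Phb2 (0.0892), Timm13 (0.0666) and Mtx2 (0.28) turned positive, as did Timm17a (0.11), Timm17b (0.22), Tomm5 (0.21), Timm8a1 (0.17) and Timm10 (0.29). The cause of these turns was not tested. The log2 fold change of Mtx2, near zero, was also positive with length and GC trends removed (0.0721). With 1 library left out it ran from -0.25 (without knockout 4) to 0.0640 (without knockout 1). Removing those trends also ended the calls of Opa1, Samm50 (edgeR adjusted p = 0.0536), Tomm34, Mtx1 and the partner Clpp (adjusted p = 0.0630). Chchd1, uncalled in the main test, was called lower with those trends removed (adjusted p = 0.0328) and with DESeq2 (adjusted p = 0.0158).

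Numbers 2 and 4 are shared by both genotypes. The deviations of same-numbered libraries from their group means correlated with r of -0.05 (number 2) and 0.06 (number 4). Across numbers, r was 0.0039 (knockout 2 and wild type 4) and 0.0542 (knockout 4 and wild type 2). Such correlations cannot exclude a shared litter or batch, since the spread among the knockout libraries enters them. A replicate block over those 4 libraries gave 5 risers and 6 fallers among the genes described (4 and 5 of them as in the main test). It gave 1 riser and 7 fallers among the partners and 1588 calls over all genes. In that fit Opa1, Tomm34 and Mtx1 were not called, and the log2 fold change of Mtx2 was 0.0176. With 3 libraries a group, an exact permutation test of 1 gene cannot go below 0.10.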
